A study of Mus musculus with 116 samples.

Results

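Stfa1, Stfa3 and Cstb encode stefins, small inhibitors of cysteine proteases that act inside the cell. They were taken as the probes carrying those symbols in the platform annotation, which gave 1 probe each, so 3 of the 15097 genes with a symbol of their own among 21797 tested probes. The 3 genes were chosen by their measured log2 ratios between parental cells kept for 72 hours in GM-CSF and the same cells at 0 hours. Those values, and every comparison that holds either of these RNAs, are therefore given as a description without a test. The tested differences are not free of these RNAs, because a joint fit over all arrays of a replicate gives every level. The platform annotation ties the Stfa1 probe to Entrez gene 20861, the Stfa3 probe to 20863 and the Cstb probe to 13014.

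RNA came from FDB1, a mouse myeloid cell line that grows in IL-3 and differentiates in GM-CSF, and was compared in pairs on spotted 2-colour arrays. All cells grew in 500 U/mL mouse IL-3 with 10% fetal calf serum and were washed at 0 hours. Parental cells went into 500 U/mL mouse GM-CSF, whereas cells that express a mutant receptor, V449E or FI-Delta, were left with no factor. Samples were taken at 0 hours and then at 6, 12, 24, 48 and 72 hours, parental cells at 0 hours serving as the start of the GM-CSF course. The 18 conditions have 2 replicates each, 36 RNAs in all, and 116 arrays form 58 dye-swap pairs over 28 comparisons. The labels do not say whether the replicates were separate cultures or whether a mutant line is 1 clone, so a p-value here measures the spread between these samples alone, which may be technical. They also do not name the promoter that drives either mutant receptor, and the wild-type receptor of the parental line is not described for the mutant lines.

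The deposited values are relative, so the report uses 2 quantities. A level is the log2 value of 1 RNA relative to the mean of the 18 RNAs of its replicate, and a difference is the log2 value of the first condition minus the second. A level of 1 gene cannot be set against a level of another. No source states the direction of the ratios, and Cy5 over Cy3, the likely one, was assumed. Signal intensities were not used, so it is unknown how far any spot lay above background, and the labelled cell type could not be checked by the absence of a marker. In these bulk samples, fewer cells that express a gene and less RNA per cell cannot be told apart.

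Stefins belong to the cystatin superfamily and lack a signal peptide, so they stay in the cytosol and nucleus, where they bind papain-like proteases such as the cathepsins when these leave the lysosome. Cstb, stefin B, is a single gene expressed in nearly all tissues, and loss of its human counterpart causes a progressive myoclonus epilepsy. The stefin A genes expanded in the mouse into a cluster of close copies on chromosome 16 that are known for high expression in neutrophils and other myeloid cells. GM-CSF acts through a receptor whose beta chain is shared with IL-3. V449E, a substitution in the transmembrane part, and FI-Delta, a change in the extracellular part, are activating mutants of that chain.

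The start regions of the 2 stefin A genes are shown because their RNAs shared 1 pattern over the lines, as described below, and Cstb is not shown. Each run is 250 bases before and 50 after the annotated start, 5′ to 3′ on the strand of the gene, from RefSeq on GRCm38.p6. Stfa1 lies at chr16:36276898-36277197 on the plus strand and Stfa3 at chr16:36455343-36455642 on the minus strand. Capitals mark every match to the 5 motifs searched.
Stfa1: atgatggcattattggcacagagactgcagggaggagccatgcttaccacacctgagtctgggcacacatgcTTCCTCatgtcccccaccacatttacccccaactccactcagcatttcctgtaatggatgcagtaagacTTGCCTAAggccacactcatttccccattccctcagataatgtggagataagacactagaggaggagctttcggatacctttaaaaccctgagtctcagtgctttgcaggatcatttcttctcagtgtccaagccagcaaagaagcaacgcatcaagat
Stfa3: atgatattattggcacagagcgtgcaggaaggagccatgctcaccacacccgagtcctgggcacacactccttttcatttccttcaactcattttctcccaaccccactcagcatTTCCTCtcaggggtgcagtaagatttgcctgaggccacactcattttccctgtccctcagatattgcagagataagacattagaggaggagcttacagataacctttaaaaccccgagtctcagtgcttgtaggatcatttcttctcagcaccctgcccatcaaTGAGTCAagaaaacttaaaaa

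The 2 windows were identical at 245 of 304 aligned columns, 80.6%, and each was about as close to the window of Stfa2 (78.2% for Stfa1 and 80.9% for Stfa3). Motifs were searched on both strands. GAGGAA, a core of PU.1 sites, was found on the minus strand of both, at -178 to -173 in Stfa1 and at -135 to -130 in Stfa3. TTNNGNAA, a C/EBP pattern, was found in Stfa1 at -109 to -102 and not in the Stfa3 window. TGANTCA, the AP-1 pattern, was found in Stfa3 at 30 to 36, after the start, and not in the Stfa1 window. Neither window held TTCNNNGAA, the GAS pattern of STAT factors, or TATAAA, the TATA box. Of the 32851 start windows in the table, 28.3% held the PU.1 pattern, 40.7% C/EBP, 7.81% AP-1, 8.3% GAS and 13.6% the TATA box. In the RefSeq gene order the stefin A cluster from Csta1 to Stfa3 holds 22 genes, 12 of them protein-coding, and 5 protein-coding genes lie between Stfa1 and Stfa3. A spotted probe of 1 copy may bind RNA of another, and RefSeq lists the name Stfa3 also among the older names of Stfa1. Probe sequences were not used here, so the values of Stfa1 and Stfa3 are uncertain as to which copy they measure.

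Stfa3 and Stfa1 spanned a wider range over the 36 RNAs than other probes did. The standard deviation of the level was 1.95 for Stfa3, rank 1 of 21797 probes, and 1.67 for Stfa1, rank 2. Cstb ranked 392 with 0.389. These ranks are a description, because the 36 RNAs include the parental and GM-CSF RNAs whose difference chose the genes. The Stfa3 levels also join both print runs, whose means differed by 1.98 in the comparison printed on both, as described below. Over the 18 conditions replicates 1 and 2 correlated at r = 0.948 for Stfa3, 0.923 for Stfa1 and 0.857 for Cstb. These values share the design of the arrays. For the stefin A genes they take in the gap between V449E and the other RNAs, and no r between replicates was taken within a line. Stfa1 in V449E went from -2.95 at 0 hours to -1.58 at 72 hours in replicate 1. Replicate 2 went from -1.87 to -1.89. The spread within a condition was also wide for both stefin A genes, with residual standard deviations of 0.457 and 0.470 against 0.157 for Cstb.

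**Figure D1:**
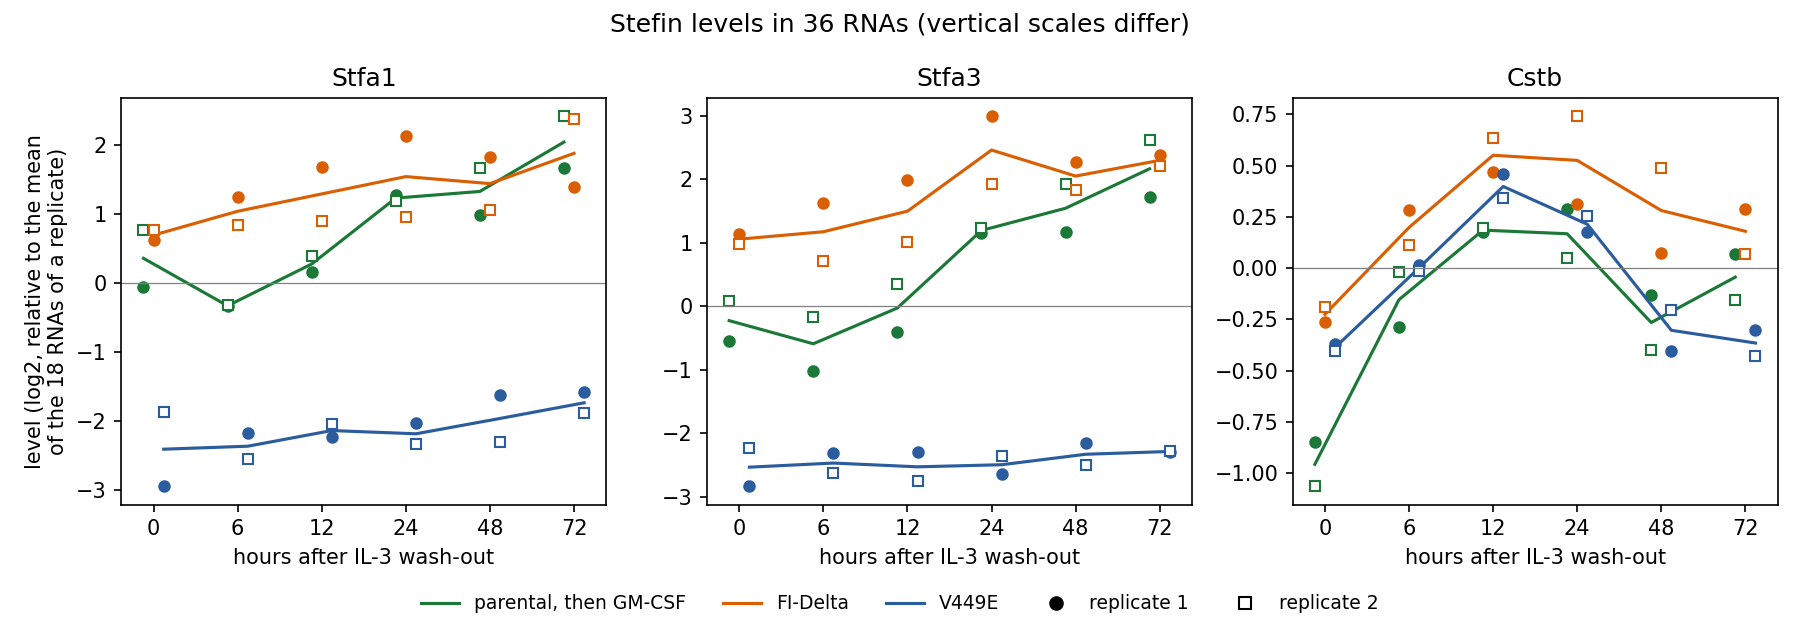
Level of each stefin (log2, relative to the mean of the 18 RNAs of a replicate) against hours after IL-3 wash-out in the 3 courses; filled circles are replicate 1, open squares replicate 2 and lines join the means of both. All 12 V449E RNAs lie at or below -1.58 for Stfa1 and at or below -2.16 for Stfa3. These levels lie under every other RNA with both print runs joined, a separation that was not counted over all probes. The Cstb courses overlap and are highest at 12 hours in V449E and at 12 and 24 hours in FI-Delta and GM-CSF.

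The stefin A genes were lower in V449E cells than in FI-Delta cells at every time, the start included. The 12 V449E levels of Stfa3 ran from -2.83 to -2.16 with a median of -2.33. The 12 FI-Delta levels ran from 0.72 to 2.99 with a median of 1.88, and the 12 levels of the parental and GM-CSF RNAs from -1.01 to 2.62 with a median of 0.75. V449E thus did not overlap with FI-Delta. The separation of V449E from the parental and GM-CSF RNAs joins both print runs, and on run 2 the V449E pairs against parental cells at 0 hours gave -1.20 and -0.60, near the -0.47 of GM-CSF at 6 hours against the same cells. For Stfa1 the V449E levels ran from -2.95 to -1.58, the FI-Delta levels from 0.62 to 2.38 and the parental and GM-CSF levels from -0.34 to 2.42, again without overlap. How many of all probes separate V449E from the other RNAs, or from FI-Delta alone, was not counted. In the order of the 18 condition means the 6 V449E times took the last 6 places for both genes. Neighbouring V449E times in that order differed by less than the standard error of a difference (0.40 for Stfa3 and 0.41 for Stfa1), so the order among those times is not resolved.

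At 0 hours, when all cells had been in IL-3, Stfa3 stood at 1.14 and 0.98 in the FI-Delta replicates and at -2.83 and -2.23 in V449E. The difference was -3.59 (SE 0.40, adjusted p = 3.35e-05 by limma), 12.1-fold lower in V449E. The fit joins all arrays of a replicate, and the dye-swap pairs of this comparison alone gave -4.68 and -3.79. Of all 21797 probes 0.225% were called in either direction in this comparison (adjusted p under 0.05), and Stfa3 had the most negative difference of all probes. Stfa1 stood at 0.62 and 0.77 in FI-Delta and at -2.95 and -1.87 in V449E. Its difference was -3.11 (SE 0.41, adjusted p = 2.25e-04), 8.62-fold lower, next to Stfa3 in that ranking. Cstb stood at -0.26 and -0.19 against -0.37 and -0.41, a difference of -0.16 (95% confidence interval -0.46 to 0.13) that was not called.

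The gap in Stfa3 lasted through the course. At 6 hours the difference was -3.64 (-3.94 in replicate 1 and -3.35 in replicate 2), at 12 hours -4.03 (-4.29 and -3.77), and at 24 hours -4.96 (-5.63 and -4.29). It was -4.38 after 48 hours (-4.44 and -4.33) and -4.59 after 72 hours (-4.68 and -4.50). All 5 were called (adjusted p from 3.58e-08 to 1.29e-05, SE 0.40), and each was the most negative of all probes at its time. The 24-hour difference was 31.1-fold and the 72-hour difference 24.0-fold. V449E lay below FI-Delta in both replicates at every time.

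Stfa1 gave differences of -3.41, -3.43, -3.73, -3.41 and -3.62 at 6, 12, 24, 48 and 72 hours (SE 0.41, adjusted p from 1.19e-06 to 5.88e-05), all called. These were 10.6-fold to 13.3-fold lower in V449E. The replicates spread most at 72 hours, where they gave -2.97 and -4.27. Counted from the most negative of all probes, the Stfa1 difference ranked 2 at each time but 72 hours, where it ranked 3.

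Cstb, the stefin found in most tissues, was called lower in V449E at the last 2 times. Its differences were -0.20, -0.15 and -0.31 at 6, 12 and 24 hours and were not called. At 48 hours the difference was -0.58 (SE 0.14, adjusted p = 0.00954; replicates -0.48 and -0.69). That call held in 10 of 13 other settings. Its losses included the fits without FI-Delta replicate 2 (-0.39) and without V449E replicate 1 (-0.47). At 72 hours it was -0.54 (SE 0.14, adjusted p = 0.00937; replicates -0.59 and -0.50), 1.46-fold lower. The share of all probes called rose over these comparisons, from 0.817% at 6 hours to 1.11% at 12, 3.37% at 24, 8.28% at 48 and 16.7% at 72 hours. The 72-hour Cstb call held in 9 of 13 other settings. Its losses included the fits without FI-Delta replicate 1 (-0.43) and without V449E replicate 2 (-0.48).

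**Figure D2:**
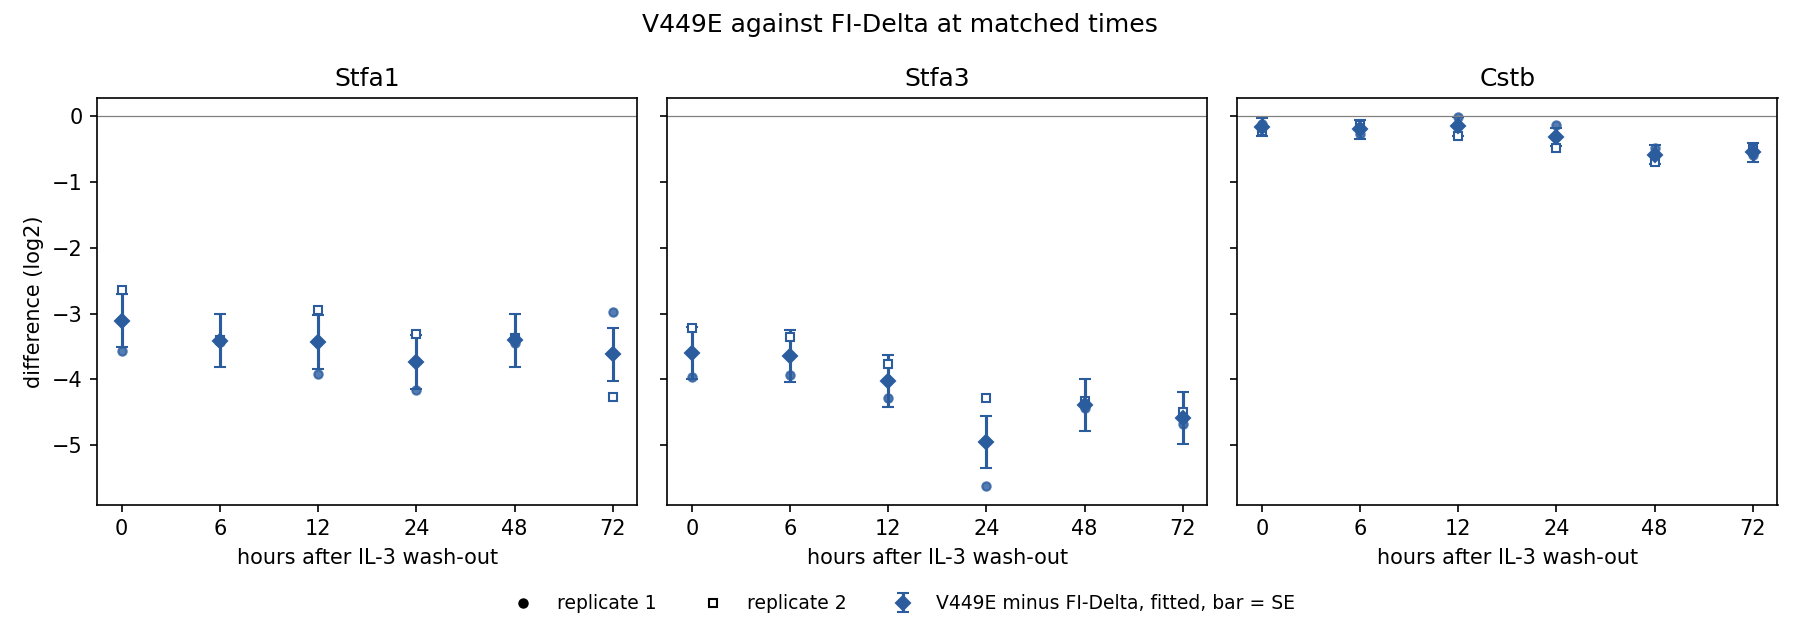
V449E minus FI-Delta at matched times (log2) for each stefin; diamonds are fitted differences with the SE as bar, filled circles replicate 1 and open squares replicate 2. Stfa1 lies between -3.11 and -3.73 and Stfa3 between -3.59 and -4.96, while Cstb stays between -0.15 and -0.58.

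All arrays of V449E against FI-Delta came from the same print run of slides. The Stfa3 and Stfa1 calls were lost in 1 of 156 recomputations under other settings: without V449E replicate 1 at 0 hours, Stfa1 gave -2.51 (adjusted p = 0.266). Genes of late neutrophil maturation, a list of 20 symbols of which 16 were measured by 17 probes, also differed between these lines. At 0 hours, where 0.225% of all probes were called, 3 of the 17 probes were lower in V449E and none was higher. The median of the 17 was -0.65, against -0.0048 over all probes. The 3 were S100a8, a calcium-binding alarmin (-2.41, adjusted p = 0.0113), its partner S100a9 (-2.51, adjusted p = 0.0199), and Lcn2, the iron-carrier binding lipocalin (-2.02, adjusted p = 0.0113). Lcn2 was named after its value was seen. At 72 hours, where 16.7% of all probes were called, 12 were lower and none higher, with a median of -1.68 against -0.01 over all probes. Ltf, lactoferrin, gave -4.06 there, Camp, the cathelicidin, -3.23, and Mmp8, neutrophil collagenase, -2.24. Ltf, Camp and Mmp8 were named for large rises in FI-Delta at 72 hours. The same FI-Delta RNAs enter here, so low values in V449E partly follow from the choice. The mean level of the 17 probes ran from -1.08 to -0.41 in the V449E RNAs, from 0.04 to 1.26 in FI-Delta and from -0.32 to 0.84 in the parental and GM-CSF RNAs. The part of neutrophil maturation in the stefin difference was not tested.

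Of macrophage genes, 17 measured by 18 probes, none was called by limma at 0 hours in either direction (1 probe at an unadjusted p under 0.05), and at 72 hours, where 16.7% of all probes were called, 3 were higher and 6 lower in V449E. Calls in the mast cell and basophil list of 11 measured genes went the other way from those of the late neutrophil list. At 0 hours 1 was called higher and none lower, and at 72 hours 4 were called higher and none lower. At an unadjusted p under 0.05 there were 6 at 72 hours, 4 of them higher. The 11 differences at 72 hours ran from -0.33 to 3.02 with a median of 0.19. The 3.02 was that of Cpa3, the mast cell carboxypeptidase (adjusted p = 9.75e-09). The primary granule list held 5 genes, 1 of them the progenitor gene Cd34. None of the 5 was called at 0 hours, with none at an unadjusted p under 0.05. At 72 hours 1 of them was higher and 1 lower. Of 8 measured lymphoid and erythroid genes, none was called at 0 hours, with 1 at an unadjusted p under 0.05, and 1 was higher at 72 hours, near the share of all probes.

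In FI-Delta cells left with no factor, Stfa3 rose by 72 hours. The 0-hour levels of 1.14 and 0.98 compare with 2.39 and 2.21 at the end of the course. The difference of 1.24 (SE 0.40, adjusted p = 0.0346), 2.36-fold, was called, as were 15.3% of all probes. The call is fragile. It was lost without either replicate of either condition (1.10 to 1.32, adjusted p from 0.090 to 0.270) and with arrays centred and scaled to 1 spread (0.76, adjusted p = 0.305). Late neutrophil genes moved with it, 8 of 17 probes being higher at 72 hours and none lower, as did macrophage genes, 7 of 18 higher and 1 lower. Of 11 mast cell and basophil genes 4 were called lower and none higher, while 2 were higher at an unadjusted p under 0.05 by limma. The part of these groups in the Stfa3 difference was not tested. At 6, 12, 24 and 48 hours Stfa3 differed from 0 hours by 0.12, 0.44, 1.40 and 0.99, and no call was made (adjusted p from 0.080 to 0.989). The highest mean level of Stfa3 over all conditions was at 24 hours in FI-Delta, where the replicates stood at 2.99 and 1.94 and so lay on both sides of the 72-hour levels.

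Stfa1 in FI-Delta went from 0.62 and 0.77 at 0 hours to 1.39 and 2.38 at 72 hours. The difference of 1.19 (SE 0.41) just missed the threshold (adjusted p = 0.0504, 95% confidence interval 0.35 to 2.03). Without the replicate block, which adds 1 residual degree of freedom, the same difference passed (adjusted p = 0.0420). At the earlier times it gave 0.35, 0.60, 0.85 and 0.75, none called, with replicate 1 above replicate 2 at each. At 24 hours the replicates gave 1.51 and 0.19.

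Cstb rose early in FI-Delta, and its later values were smaller. From 0-hour levels of -0.26 and -0.19 it reached 0.47 and 0.63 at 12 hours and 0.31 and 0.74 at 24 hours, and stood at 0.29 and 0.07 at 72 hours. The difference from 0 hours was 0.42 at 6 hours (adjusted p = 0.212) and 0.78 at 12 hours (SE 0.14, adjusted p = 0.00265), 1.71-fold. It was 0.75 at 24 hours (adjusted p = 0.00865), 0.51 at 48 hours (adjusted p = 0.0429) and 0.40 at 72 hours (adjusted p = 0.0578). Calls were thus made at 12, 24 and 48 hours, where 5.06%, 1.42% and 4.44% of all probes were called. At 6 hours the share was 0.725%. Over 13 other settings each, the 12-hour call held in 12, the 24-hour call in 9 and the 48-hour call in 8.

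Cstb also rose early in V449E cells. From 0-hour levels of -0.37 and -0.41 it reached 0.46 and 0.34 at 12 hours, then 0.18 and 0.25 at 24 hours, with -0.30 and -0.43 in the last samples. The difference was 0.39 at 6 hours (adjusted p = 0.327), 0.78 at 12 hours (SE 0.14, adjusted p = 0.00615) and 0.60 at 24 hours (adjusted p = 0.0354). It was 0.08 at 48 hours and 0.02 at 72 hours (95% confidence interval at 72 hours -0.27 to 0.32). The 12-hour and 24-hour calls held in 10 and 8 of 13 other settings. Few probes were called in this course: 0.702% at 6 hours, 1.28% at 12, 1.45% at 24, 0.00459% at 48 and 0% at 72 hours. At 72 hours 933 probes had an unadjusted p under 0.05 by limma.

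The stefin A genes stayed low in V449E at all times. Stfa3 differed from its 0-hour level by 0.06, 0.01, 0.04, 0.20 and 0.25 at 6, 12, 24, 48 and 72 hours. Its 95% confidence interval at 72 hours was -0.57 to 1.07. Stfa1 differed by 0.04, 0.27, 0.22, 0.45 and 0.67 (interval at 72 hours -0.17 to 1.51). None of these 10 differences was called by limma and none had an unadjusted p under 0.05. At each of these times replicate 1 gave a positive value for both genes, and replicate 2 a negative one. The 0-hour RNA of replicate 1 was the lowest of all 36 for both genes, and it enters each of its 5 differences.

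**Figure D3:**
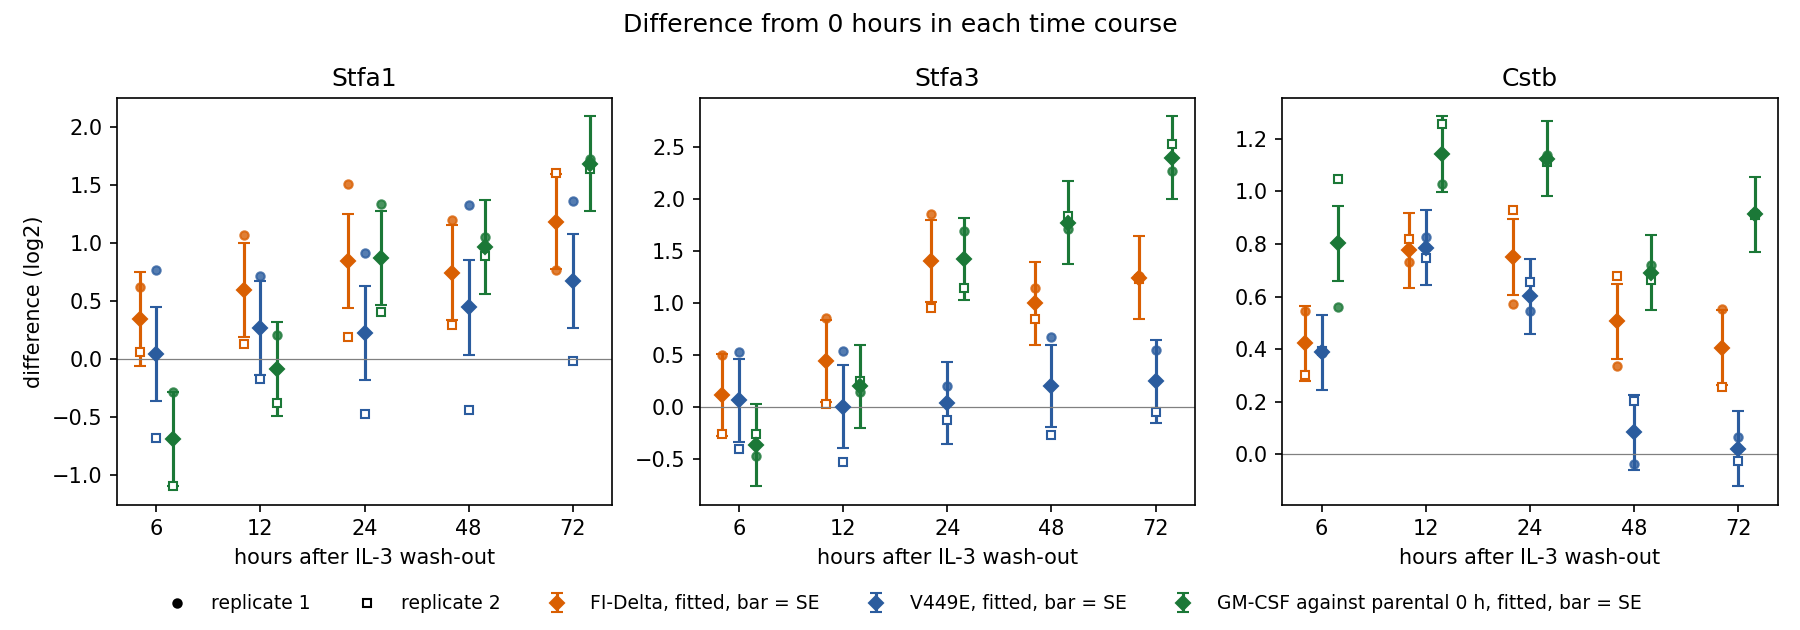
Difference from 0 hours (log2) against time for each stefin in the FI-Delta, V449E and GM-CSF courses, with vertical scales that differ between genes; diamonds are fitted differences with the SE as bar, filled circles replicate 1 and open squares replicate 2. Cstb is at 0.78 in FI-Delta and in V449E and at 1.14 in GM-CSF at 12 hours, with 0.75, 0.60 and 1.12 at 24 hours, and the largest Stfa3 value is 2.39 in GM-CSF at 72 hours.

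Whether the FI-Delta and V449E responses themselves differed was tested as a difference of differences. For Stfa3 the FI-Delta response exceeded that of V449E by 0.05, 0.44, 1.37, 0.79 and 0.99 at 6, 12, 24, 48 and 72 hours (SE 0.56). For Stfa1 the values were 0.30, 0.33, 0.63, 0.30 and 0.51 (SE 0.57), the last of which turned to -0.22 with arrays centred and scaled. For Cstb they were 0.03, -0.01, 0.15, 0.42 and 0.38 (SE 0.20). None of the 15 values was called by limma, and 2 had an unadjusted p under 0.05, those of Stfa3 at 24 hours and Cstb at 48 hours. With the dye-swap pairs as the units of the fit, which treats pairs of 1 RNA as independent, 4 were called. Of all probes 0%, 0%, 0.00918%, 0.385% and 3.59% were called at the 5 times. The Stfa3 rise in FI-Delta is therefore not shown to differ from the V449E course. Of the Stfa3 gap of -4.59 between the lines at 72 hours, -3.59 was present at 0 hours.

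Against GM-CSF-treated parental cells at the same time, FI-Delta cells had more Stfa3 at 6 hours. The levels were 1.63 and 0.72 in FI-Delta and -1.01 and -0.16 in GM-CSF, and the difference was 1.77 (SE 0.40, adjusted p = 0.0397), 3.40-fold. Replicate 1 gave 2.64 and replicate 2 gave 0.89. The call held in 6 of 12 other settings and was lost without either RNA of replicate 1 (1.33 and 1.35, adjusted p = 0.449 and 0.461). At 12, 24 and 48 hours the Stfa3 differences were 1.53, 1.27 and 0.51, not called. Stfa1 differed by 1.37, 1.02, 0.31 and 0.11 at 6, 12, 24 and 48 hours and Cstb by 0.35, 0.36, 0.36 and 0.55, none called. The shares of all probes called were 0.491%, 0.307%, 0.174% and 0.289%.

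The replicates of these comparisons lay on different print runs, replicate 1 on run 1 and replicate 2 on run 2, so run and replicate cannot be told apart there. V449E against parental cells at 0 hours was the 1 comparison printed on both runs, with both replicates on each. For Stfa3 the 4 arrays of run 1 gave -3.04, -2.97, -2.53 and -3.00 and the 4 of run 2 gave -1.09, -1.32, -0.74 and -0.47. The runs did not overlap, and their means of -2.88 and -0.90 differed by 1.98. Over all 21797 probes this difference between runs had a standard deviation of 0.177, and that of Stfa3 ranked 3 in size. Stfa1 gave means of -2.80 and -2.96 and Cstb 0.47 and 0.60, both within the spread of their arrays. The spotting layout changed between the runs, and whether the Stfa3 spot was the same probe in both layouts was not tested. The Stfa3 values of replicate 2 in the GM-CSF course, and in FI-Delta against GM-CSF, rest on run 2.

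**Figure D4:**
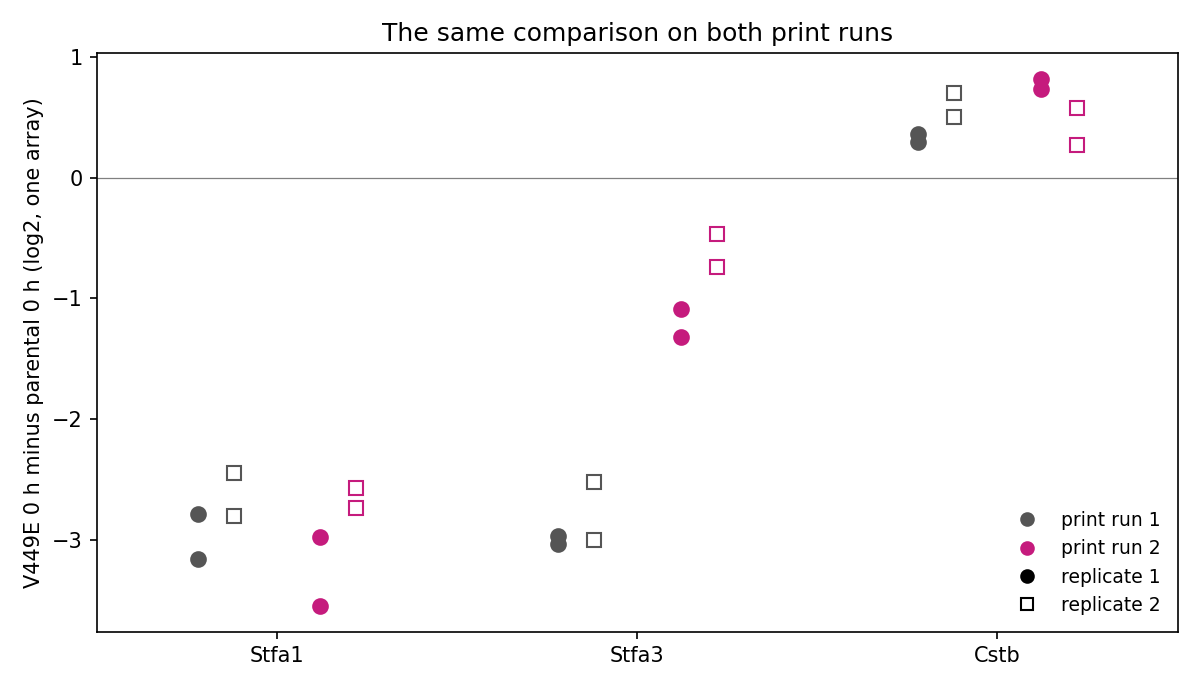
V449E minus parental cells at 0 hours (log2) on single arrays, each turned to the same direction, by gene and print run; circles are replicate 1 and squares replicate 2. The Stfa3 arrays of run 2 lie between -1.32 and -0.47, above all 4 of run 1, while the runs overlap for Stfa1 and Cstb.

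Since the fit joins both runs, the Stfa3 values were also taken from run 1 alone. V449E against FI-Delta then gave -3.87 at 0 hours (adjusted p = 1.75e-06), -5.12 at 24 hours and -4.70 at 72 hours (adjusted p = 4.74e-08). FI-Delta at 72 hours against 0 hours gave 1.20 (adjusted p = 0.0102), and the 24-hour difference of 1.44 was called (adjusted p = 0.0208). No comparison with GM-CSF could be made with both replicates from run 1 alone.

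In parental cells moved to GM-CSF, the values that chose the genes, Stfa3 stood at -0.54 and 0.09 at 0 hours and at 1.72 and 2.62 at 72 hours. The difference was 2.39 (replicates 2.26 and 2.52). The path there was not straight: -0.36 at 6 hours, 0.20 at 12, 1.42 at 24 and 1.77 at 48 hours. Stfa1 gave -0.69, -0.08, 0.87, 0.97 and 1.69 over the same times, with replicates of -0.28 and -1.10 at 6 hours. Cstb gave 0.80, 1.14, 1.12, 0.69 and 0.91, so it was above its 0-hour level from the first time on, where both stefin A genes were below theirs. Parental cells at 0 hours had the lowest Cstb mean of all 18 conditions (-0.85 and -1.06).

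At 0 hours V449E differed from parental cells by -2.77 in Stfa1, -2.31 in Stfa3 (with both print runs joined) and 0.57 in Cstb. FI-Delta differed by 0.34, 1.28 and 0.73, of which the Stfa1 value is less than the standard error of a difference (0.41). For Stfa3 the FI-Delta pair on run 1 gave 1.58 and that on run 2 gave 0.52. At 72 hours FI-Delta and GM-CSF cells differed by -0.16 in Stfa1, 0.13 in Stfa3 and 0.22 in Cstb, less than the standard error of the fit for the stefin A genes. These comparisons share the parental or GM-CSF RNAs with the values used to choose the genes.

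Of 11 other stefin symbols in the list, 2 had a probe of their own, Stfa2 and Csta2, both in the stefin A cluster. In FI-Delta both rose by 72 hours, Stfa2 by 0.98 (adjusted p = 4.72e-04) and Csta2 by 0.97 (adjusted p = 2.85e-04). In V449E against FI-Delta, Stfa2 was lower at 0 hours (-1.09, adjusted p = 0.00362), whereas Csta2 gave -0.57 and was not called (adjusted p = 0.305). At 72 hours both were lower, by -1.94 and -1.47. The 12-hour differences, at which Cstb was higher in both lines, were 0.21 and 0.08 in FI-Delta and -0.14 and -0.03 in V449E, none called and none with an unadjusted p under 0.05.

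All 11 listed cysteine proteases were measured: the cathepsins, which are of the kind that stefins inhibit, and legumain. At 0 hours none was called between V449E and FI-Delta by limma, and none had an unadjusted p under 0.05. At 72 hours 2 were higher in FI-Delta than at 0 hours and none lower: Ctss, the cathepsin of antigen processing, by 1.30 (adjusted p = 2.02e-04), and Lgmn, the asparagine-specific legumain, by 0.64 (adjusted p = 0.0120). The same 2 were lower in V449E than in FI-Delta at 72 hours, by -0.70 (adjusted p = 0.0252) and -0.51 (adjusted p = 0.0433). In both comparisons 2 of 11 lies near the share of all probes called, 15.3% and 16.7%. At 12 hours, where Cstb was called in both lines, none of the 11 was called in either line (1 in FI-Delta and 2 in V449E at an unadjusted p under 0.05). The median over the 11 at 72 hours in FI-Delta was 0.05, against 0.00 over all probes. Of 13 measured secreted cystatins and relatives, Cst7, cystatin F, which is targeted to lysosomes of immune cells, was lower in FI-Delta at 72 hours by -0.51 (adjusted p = 0.00253) and none was higher. Of 4 aspartic and serine cathepsins, Ctsa, the lysosomal protective protein, was higher by 0.41 (adjusted p = 0.00189).

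**Figure D5:**
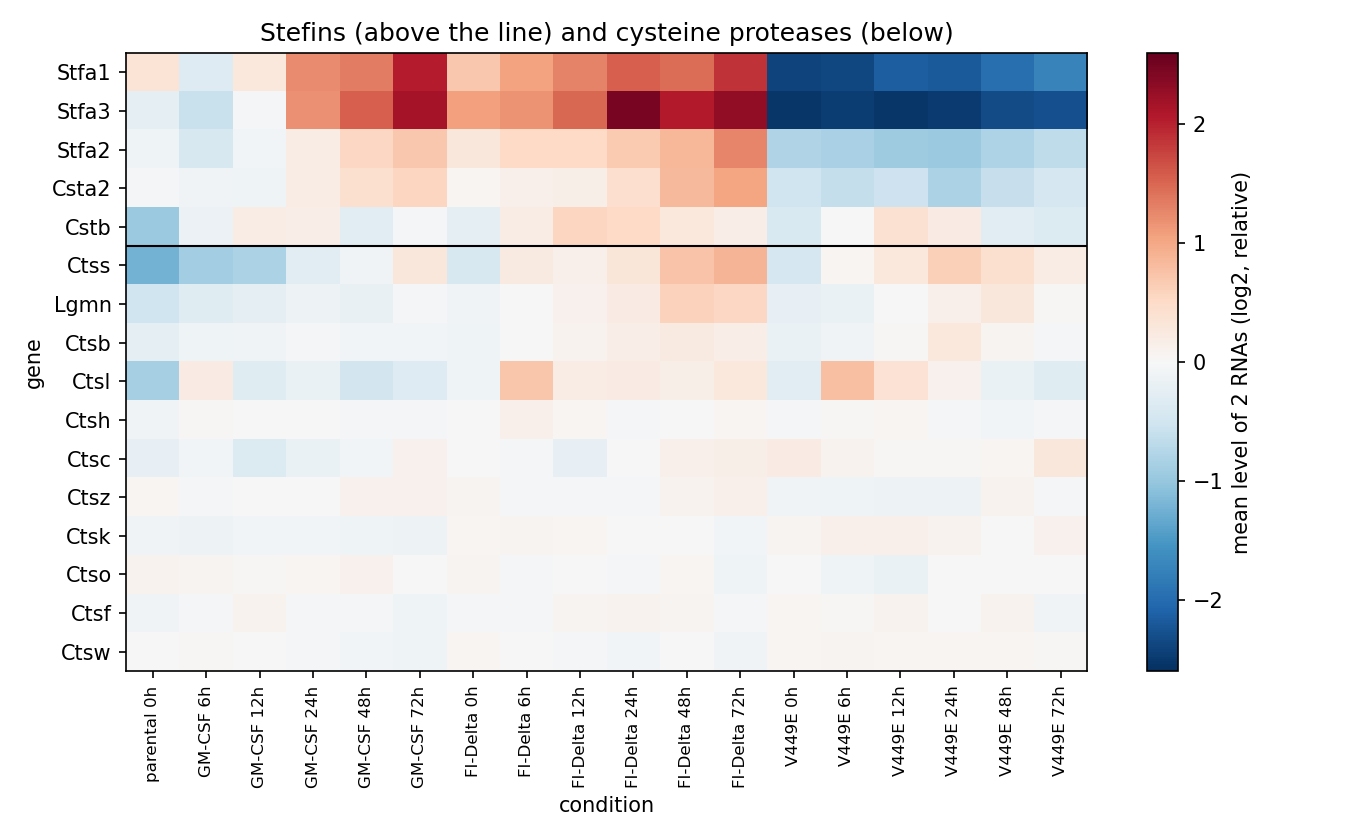
Mean level of 2 RNAs (log2, relative to each gene's own mean, colour scale from -2.6 to 2.6) of 5 stefins, above the line, and 11 cysteine proteases in the 18 conditions. Stfa1 and Stfa3 are lowest in the 6 V449E columns, with Stfa2 and Csta2 following at smaller values, while Cstb and Ctss are lowest in parental cells at 0 hours.

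The stefin A probes followed each other and not Cstb. Over the 36 RNAs, Stfa1 and Stfa3 correlated at r = 0.979. Since V449E RNAs form a cluster of their own, r was also taken within groups: 0.916 over the 24 other RNAs and 0.681 over the 12 V449E RNAs. Stfa1 and Cstb correlated at 0.26 over the 24 RNAs and -0.22 over the 12, and Stfa3 and Cstb at 0.45 and -0.26. The RNAs share arrays, lines and time points, so these are descriptions.

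The probes most like each stefin over the 36 levels also differed. After Stfa3, the closest to Stfa1 were S100a8 (0.975), S100a9 (0.970), Scarb1, a lipoprotein receptor (0.968), and Il1b, the inflammatory cytokine (0.941). Within the 24 RNAs outside V449E they gave 0.923, 0.907, 0.881 and 0.870. For Stfa3 they were, after Stfa1, Scarb1 (0.969), Stfa2 (0.966), Wfdc21 (0.960) and Csn2 (0.952), with 0.893, 0.909, 0.929 and 0.817 outside V449E. Within the 12 V449E RNAs, Wfdc21 and Csn2 had no positive relation to Stfa3 (-0.06 and -0.17). For Cstb they were Rnase2b, an eosinophil-type ribonuclease (0.923), Prkcd, a protein kinase C (0.920), 1300017J02Rik (0.905), Clec4d, a C-type lectin of myeloid cells (0.893), and Boll (0.872, the closer of its 2 probes). The Cstb group kept its values within V449E (0.794 to 0.942). The 12-hour differences of Rnase2b from 0 hours were 0.51 in FI-Delta and 0.51 in V449E. Since Rnase2b was picked by its likeness to Cstb over the same RNAs, a rise shared with Cstb follows from the choice.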

How the data were processed

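RNA of FDB1 cells in 18 conditions with 2 replicates was hybridised to 116 spotted 2-colour arrays, 90 of print run 1 and 26 of print run 2, without technical replicates beyond dye swaps and the comparison printed on both runs. The deposited table was taken to hold log2 ratios, which the authors had normalised and put in the spot order of run 2, per the labels; limma is named in the submitters' processing notes without a version. Log base, direction, background correction and normalisation method are not given in the sources used here. Array medians ran from -0.02 to 0.01. Intensities were not used, so depth is unknown, and the count of arrays sets the precision.

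After 1243 control spots were left out, 21797 probes were tested, of which 16651 had 1 symbol, 137 several and 5009 none. The arrays of a dye-swap pair were averaged, and a least-squares fit per replicate turned the pairs into a level for each of the 36 RNAs. Differences were tested with limma 3.58.1 in R 4.3.3 (lmFit, eBayes, replicate number as a block, 17 residual and 5.99 prior degrees of freedom), 2-sided, with Benjamini-Hochberg adjustment over all probes of a comparison at 0.05. Of 28 comparisons 20 were tested and 8 described. The fit was also run on simulated levels with independent noise for each RNA. That run held no arrays or print runs, so it does not test the step from arrays to levels. No array holds RNAs of both replicate numbers, so the block counts the degree of freedom that centring within replicates uses, and the labels give no shared culture or day behind a number. Start windows were searched and aligned with Biopython 1.88, with a match score of 2, a mismatch of -1, and gaps of -5 to open and -1 to extend. No protein sequence was compared.

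The 3 genes and all gene lists (other stefins, secreted cystatins, cysteine cathepsins and legumain, aspartic and serine cathepsins, late neutrophil, macrophage, mast cell and basophil, primary granule, lymphoid and erythroid) were chosen with earlier results of these data known. Beyond the 3 genes, the text gives values for at most 4 genes of a list called in FI-Delta at 72 hours and the 5 symbols most like each stefin. Lcn2, named after its value was seen, is an exception. Alternatives were the fit with no block, a fit on dye-swap pairs, direct arrays only, arrays centred and scaled, run 1 only, single dye orientations, averaged probes of a symbol, robust eBayes and leaving out each RNA.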

Additional observations from a re-analysis of the deposited data

Results flagged for a closer look

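Of 84 sets of arrays (3 genes by 28 comparisons), 3 held an array far from the others, where chance alone flags about 1 in 20. For Stfa3 in GM-CSF at 6 hours against parental cells at 0 hours, 1 of 4 arrays gave -0.39 and the others lay between -0.57 and -0.55. For Cstb in V449E at 6 hours against 0 hours, 1 array gave 0.59 and the others 0.31 to 0.34. For Cstb in V449E at 12 hours against 0 hours, 1 array gave 0.36 and the others 0.88 to 0.92.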

How the results depend on the processing

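Of 1023 recomputed values for the 3 stefins, 51 changed sign, and none of these was a called value. Signal over background could not be assessed.

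Without the replicate block, FI-Delta at 72 hours against 0 hours passed for Stfa1 (1.19) and Cstb (0.40, adjusted p = 0.0477). With dye-swap pairs as units both passed at the same sizes (adjusted p = 0.00143 and 0.00170). The check of pairing by number could not be made, because levels are centred within each replicate. With arrays centred and scaled, Stfa3 at 72 hours in FI-Delta (0.76) and Cstb in V449E against FI-Delta at 72 hours (-0.46) no longer passed. On run 1 alone, Cstb in FI-Delta at 72 hours passed (0.42), and V449E against parental cells at 0 hours gave -2.73 for Stfa3. On arrays with the first condition in Cy5, Stfa3 in FI-Delta at 72 hours (1.17) and Cstb in V449E against FI-Delta (-0.40) did not pass. On arrays with it in Cy3, Stfa3 (1.31) did not pass and Stfa1 (1.51) did. With robust eBayes Stfa3 (1.24) did not pass. Leaving out 1 RNA, these 72-hour values ran from 0.69 to 1.71 for Stfa1 and from 1.10 to 1.32 for Stfa3 in FI-Delta, and from -0.67 to -0.43 for Cstb in V449E against FI-Delta. Stfa1 in V449E against FI-Delta at 0 hours ran from -3.69 to -2.51.

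In the V449E course Stfa1 gave -0.0040 at 6 hours with scaled arrays and -0.10 on Cy5 arrays. On Cy5 arrays Stfa3 gave -0.0021 at 24 hours, and on Cy3 arrays -0.070 at 12 hours. On Cy3 arrays Cstb gave -0.041 at 48 hours and -0.12 at 72 hours. Leaving out 1 RNA, the V449E course ran for Stfa1 from -0.42 to 0.44 at 6 hours, -0.42 to 0.88 at 12, -0.10 to 1.26 at 48 and -0.0074 to 1.16 at 72 hours. It ran for Stfa3 from -0.17 to 0.40 at 6 hours, -0.43 to 0.21 at 12 and -0.41 to 0.18 at 24 hours, and for Cstb from -0.018 to 0.19 at 48 and -0.046 to 0.090 at 72 hours. In the FI-Delta course Stfa3 ran from -0.39 to 0.58 at 6 hours and -0.084 to 0.98 at 12 hours. FI-Delta against GM-CSF ran for Stfa1 from -0.56 to 0.94 at 24 hours and -0.29 to 0.39 at 48 hours. Among FI-Delta minus V449E responses, scaled arrays gave -0.034 for Cstb at 6 hours and -0.22 for Stfa1 at 72 hours, and run 1 alone -0.084 for Stfa3 at 6 hours. Single dye orientations gave 0.019 for Cstb at 12 hours (Cy5), and -0.015 for Cstb at 6 hours and -0.0067 for Stfa1 at 48 hours (Cy3). Leaving out 1 RNA, these responses ran for Stfa1 from -0.17 to 0.81 at 6 hours, -0.27 to 0.97 at 12, -0.42 to 0.86 at 48 and -0.037 to 1.15 at 72 hours. They ran for Stfa3 from -0.38 to 0.50 at 6 and -0.14 to 0.87 at 12 hours, and for Cstb from -0.10 to 0.16 at 6, -0.050 to 0.062 at 12 and -0.051 to 0.39 at 24 hours.

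The number of all probes called in V449E against FI-Delta at 0 hours was 49, and 2459 with pairs as units, 188 from direct arrays, 19 and 23 in single dye orientations, and 6 to 18 with 1 RNA left out. For FI-Delta at 72 hours it was 3326, and 6533 with pairs as units, 1589 with scaled arrays, 1725 and 2203 in single dye orientations, 4326 from direct arrays, and 1053 to 2346 with 1 RNA left out. For V449E against FI-Delta at 72 hours it was 3634, and 6044, 1952, 2737 and 2386 in the same order, 3858 from direct arrays, and 2076 to 2641 with 1 RNA left out. The cause of these changes was not tested.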
